A study of Mus musculus with 6 samples.

Results

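The cytosolic ribosomal proteins, which together with ribosomal RNA build the ribosome of the cytoplasm, were compared between hearts in which human SRY was active and hearts in which it was not. The heart table named these transcripts by symbols that start with Rpl, Rps or Rplp followed by a digit. Symbols that start with Rps6k, which are kinases, were left out, as were Rpl3 and Rpl3l. The rule chose 79 of the 25697 probes of the table and 61 of its 18138 gene symbols. The large subunit had 47 probes for 34 symbols, and the small subunit had 32 probes for 27 symbols. The rule reads symbols only, but it was set with earlier results of these data known.

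The hearts came from male pups of the FVB strain, FVB/N in the methods, at postnatal day 6, with 3 hSRY-ON and 3 hSRY-OFF samples and 1 array for each. In hSRY-ON pups, a single copy of the Signalox-hSRY transgene at the H11 locus had been recombined, so that the actin CAG promoter drove FLAG-tagged human SRY and EGFP in place of DsRed2. The Cre protein came from the oocytes of Ddx4-Cre mothers and acted in the fertilized egg, so that activation was not limited to the heart, and the hSRY-ON pups used for arrays did not carry Ddx4-Cre themselves. The methods define hSRY-OFF as the transgene without recombination, whereas elsewhere the controls are littermates with Ddx4-Cre alone or with neither transgene, so the control genotype is uncertain. The hSRY-ON pups grew slowly, took little milk and died young. A difference between the groups therefore cannot be told apart from one of growth or feeding. No level of the human transgene was analysed here, so the group labels were not checked against it. The labels do not say whether the hearts of a group came from different litters.

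A ribosome has a small subunit, which reads the mRNA, and a large subunit, which joins the amino acids. Each subunit holds its own set of proteins, in general in a single copy per ribosome, and cells tend to make these proteins in step with one another. Ribosomal protein mRNAs are among the most abundant of a cell. In vertebrates they start with a run of pyrimidines, the 5′ terminal oligopyrimidine or TOP element, through which mTOR signalling sets how well they are translated. An array measures the amount of these mRNAs, and it does not measure how much of them is translated or how many ribosomes are assembled.

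The transcripts of the cytosolic ribosomal proteins differed little between hSRY-ON and hSRY-OFF hearts. Of the 79 probes, 65 passed the filter on detection, and limma called 4 of them at an adjusted p-value under 0.05, which is 6.15% where 27.5% of all 12970 tested probes were called. All 4 were higher in hSRY-ON hearts, namely Rps6, Rps26 and Rps15a of the small subunit and Rpl18 of the large subunit. No probe was called lower. Over all tested probes, 13.8% were called higher and 13.7% lower. Without adjustment, limma gave a p-value under 0.05 to 9 of the 65 probes (13.8%, where 40.3% of all tested probes had one), 3 of the large and 6 of the small subunit, each higher in hSRY-ON. The count depended on the model, with 15 of 65 called (23.1%, where 30.9% of all were) when the variance followed an intensity trend, 12 (18.5%, where 30.5% of all were) without background correction and 0 without normalization between arrays, where 14.6% of all were.

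The sizes of the differences were narrow. On the log2 scale of the normalized intensities, hSRY-ON minus hSRY-OFF, the median was 0.08 over the 35 tested large subunit probes and 0.15 over the 30 tested small subunit probes, against −0.00 over all tested probes. Without normalization between arrays the medians were −0.04 and −0.05 and thus turned in sign, where the median of all tested probes was −0.12. Relative to all tested probes, the medians were then 0.08 and 0.07. In that setting 24 of the 65 probes turned in sign. The middle of the distribution, between the lower and upper quartile, ran from −0.02 to 0.17 for the large subunit and from 0.01 to 0.25 for the small subunit, and from −0.31 to 0.29 for all tested probes. A log2 difference of at least 0.5 in size was measured for 1 ribosomal protein probe, Rps6, or 1.54%, against 29.5% of all tested probes. None of the 65 differed by 2-fold, as 9.58% of all tested probes did. The medians of the subunits were not tested against each other.

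**Figure D1:**
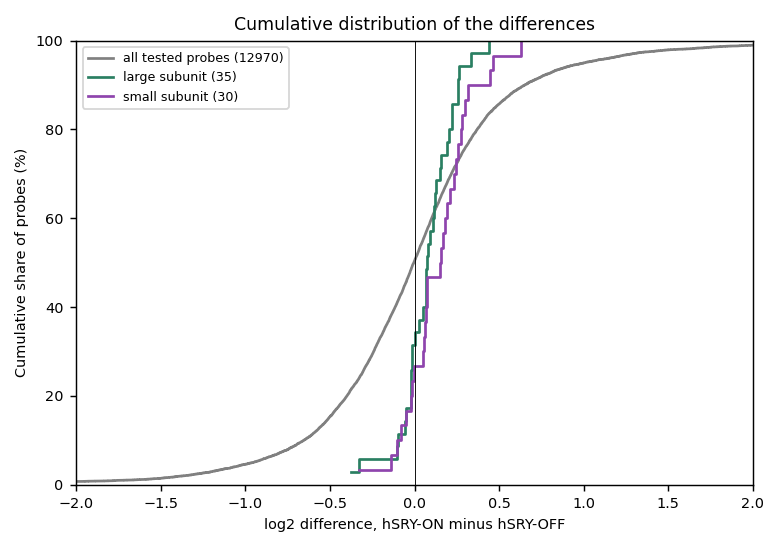
Cumulative share of probes (vertical axis, %) against the log2 difference, hSRY-ON minus hSRY-OFF (horizontal axis), for the 35 large subunit probes, the 30 small subunit probes and all 12970 tested probes. Both subunits rise steeply between −0.38 and 0.63, while the line of all tested probes is spread much wider on both sides of 0.

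A probe that missed the threshold was not thereby shown to be equal in the groups, so the width of the intervals was examined. The 95% interval of the difference lay wholly within 1.5-fold in either direction for 53 of the 65 probes (81.5%). That held for 30 of 35 large subunit probes (85.7%) and 23 of 30 small subunit probes (76.7%), against 35.2% of all tested probes. The half-width of the interval had a median of 0.28 for the large subunit, 0.29 for the small subunit and 0.37 for all tested probes. For the remaining 12 probes, a difference of 1.5-fold or more was within the interval.

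Ribosomal protein probes are bright, and bright probes are measured more closely, so they were also set beside the probes of like brightness. Of the 65 probes, 51 were among the 3243 brightest tested probes, which are the top quartile by mean normalized intensity. In that quartile limma called 31.2% of all probes and 3 of the 51 ribosomal protein probes (5.88%). The 95% interval was within 1.5-fold for 49.0% of all probes of the quartile and for 86.3% of the ribosomal protein probes in it. These shares are descriptions, and the probes of a shared set of hearts are not independent of each other.

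**Figure D2:**
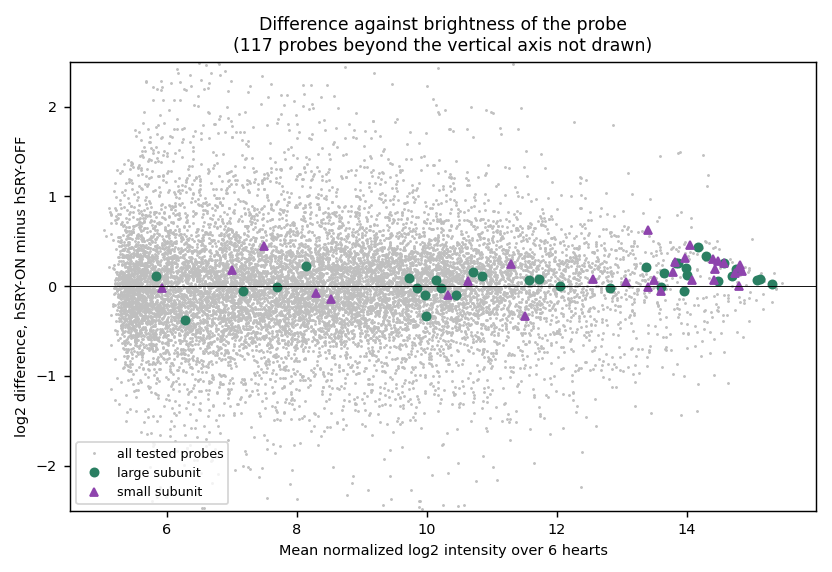
Log2 difference, hSRY-ON minus hSRY-OFF (vertical axis), against the mean normalized log2 intensity over 6 hearts (horizontal axis) for large subunit probes (circles), small subunit probes (triangles) and all tested probes (grey). The 65 ribosomal protein probes lie between −0.38 and 0.63, while other probes over most of the brightness range reach beyond 1 in size.

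The order of the hearts was described next. After normalization, the 3 hSRY-ON hearts lay above the 3 hSRY-OFF hearts in 23 of the 65 probes (35.4%), 10 of the large and 13 of the small subunit, and lay below them in none. Among all tested probes the groups did not overlap in 45.2%, with hSRY-ON above in 23.6% and below in 21.6%. In the intensities as deposited, hSRY-ON lay above in 1162 and below in 1558 of all 12970 tested probes. Of the 65 ribosomal protein probes, only Rps6 separated the groups in these intensities, with hSRY-ON above. There, hSRY-OFF replicate 3 was the lowest of the 6 hearts in 63 of the 65 probes and hSRY-OFF replicate 2 the highest in 49. The spread among hSRY-OFF arrays was thus wider than the difference between the groups before normalization.

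The level of the whole set was followed heart by heart. In the hSRY-OFF hearts, the large subunit probes had median deposited intensities of 9467, 10231 and 4699 (replicates 1, 2 and 3), and in the hSRY-ON hearts of 6316, 7369 and 7272. For the small subunit it was 14964, 16870 and 9475 in hSRY-OFF and 12950, 14344 and 12128 in hSRY-ON. hSRY-OFF replicate 3 was the dimmest array as a whole, with a mean intensity over all probes of 631.3 against 723.0 to 938.8 on the other arrays, so that these medians follow the brightness of the arrays. After normalization, the mean deviation of the large subunit probes from their own mean over 6 hearts was −0.02, 0.01 and −0.10 in hSRY-OFF and 0.02, 0.02 and 0.06 in hSRY-ON. For the small subunit it was −0.05, −0.04 and −0.12 in hSRY-OFF and 0.07, 0.06 and 0.08 in hSRY-ON. In both subunits hSRY-OFF replicate 3 remained the lowest heart, and every hSRY-ON heart lay above every hSRY-OFF heart by a small margin.

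**Figure D3:**
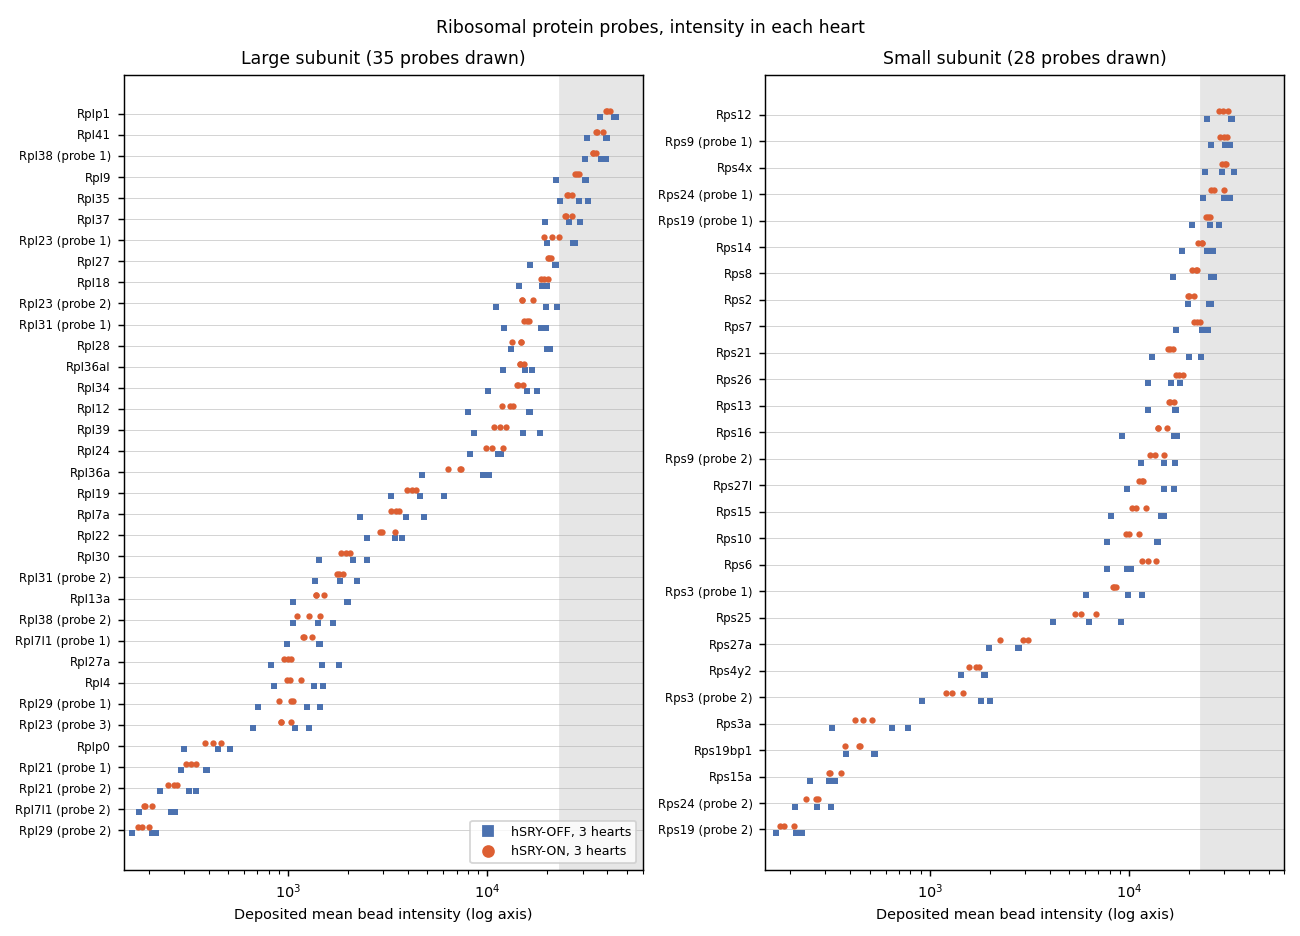
Deposited mean bead intensity (horizontal log axis) of 63 tested ribosomal protein probes in the 3 hSRY-OFF hearts (squares) and the 3 hSRY-ON hearts (circles), ordered by brightness within the large and the small subunit. The shaded range is above 50% of the mean highest intensity of the arrays. In most rows the groups overlap, and the lowest value is in general hSRY-OFF replicate 3.

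Rps6, a small subunit protein that S6 kinases phosphorylate downstream of mTOR, had the largest difference of the set. Its deposited intensities were 10237, 9782 and 7699 in the hSRY-OFF hearts and 12414, 13695 and 11614 in the hSRY-ON hearts. The groups did not overlap, and this held before any correction. After normalization, Rps6 was at 13.09 ± 0.15 (SD, n = 3) in hSRY-OFF and 13.72 ± 0.11 (SD, n = 3) in hSRY-ON on the log2 scale. The log2 difference was 0.63 (SE 0.13, limma adjusted p = 0.0110), or 1.55-fold with a 95% interval of 1.25 to 1.91. It was called in each of the 6 fits that left out a heart, with a difference of 0.54 to 0.69 and an adjusted p of 0.0141 to 0.0414.

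Rps26, which lines the channel where mRNA leaves the small subunit, came next. Its deposited intensities were 16296, 17896 and 12432 in hSRY-OFF and 17864, 18512 and 17135 in hSRY-ON hearts. In these values, hSRY-OFF replicate 2 lay within the range of the hSRY-ON hearts, and the groups separated only after normalization. The log2 level was then 13.82 ± 0.06 in hSRY-OFF and 14.28 ± 0.05 in hSRY-ON (SD, n = 3 each), a difference of 0.46 (SE 0.11, limma adjusted p = 0.0184). The call was kept in 3 of the 6 fits that left out a heart. It was lost without hSRY-OFF replicate 1 (adjusted p = 0.0829), hSRY-OFF replicate 2 (0.0582) and hSRY-ON replicate 1 (0.0590). It was also lost under cyclic loess (0.32, adjusted p = 0.0632) and without normalization (0.22, adjusted p = 0.749). The same held with scaling to the median of probes not called (0.40, adjusted p = 0.0627) and with the replicate number as a block (adjusted p = 0.0537).

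Rps15a, another small subunit protein, had a dim probe, with deposited intensities of 314, 336 and 251 in hSRY-OFF and 312, 360 and 317 in hSRY-ON hearts. As deposited, the groups overlapped. The normalized log2 level was 7.27 ± 0.15 in hSRY-OFF and 7.71 ± 0.13 in hSRY-ON (SD, n = 3 each), a difference of 0.44 (SE 0.13, limma adjusted p = 0.0437). The call was kept in 1 of the 6 fits that left out a heart, the one without hSRY-OFF replicate 3 (adjusted p = 0.0292), and the adjusted p was 0.0743 to 0.148 in the other 5.

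Rpl18 was the only large subunit protein called. Its deposited intensities were 18811, 19879 and 14320 in hSRY-OFF and 18619, 20052 and 19113 in hSRY-ON hearts, which overlapped. The normalized log2 level was 13.95 ± 0.07 in hSRY-OFF and 14.39 ± 0.04 in hSRY-ON (SD, n = 3 each), a difference of 0.44 (SE 0.11, limma adjusted p = 0.0232). Without hSRY-OFF replicate 3 (adjusted p = 0.0296) or hSRY-ON replicate 3 (0.0496) the call was kept. It was lost without hSRY-OFF replicate 1 (0.0917), hSRY-OFF replicate 2 (0.0701), hSRY-ON replicate 1 (0.0662) or hSRY-ON replicate 2 (0.0622), with a difference of 0.42 to 0.47 over these 6 fits. The difference of Rpl18 was 0.24 under cyclic loess (adjusted p = 0.137) and 0.14 without normalization (0.859). Its call was also lost under both median scalings and with the replicate number as a block (adjusted p = 0.0607).

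**Figure D4:**
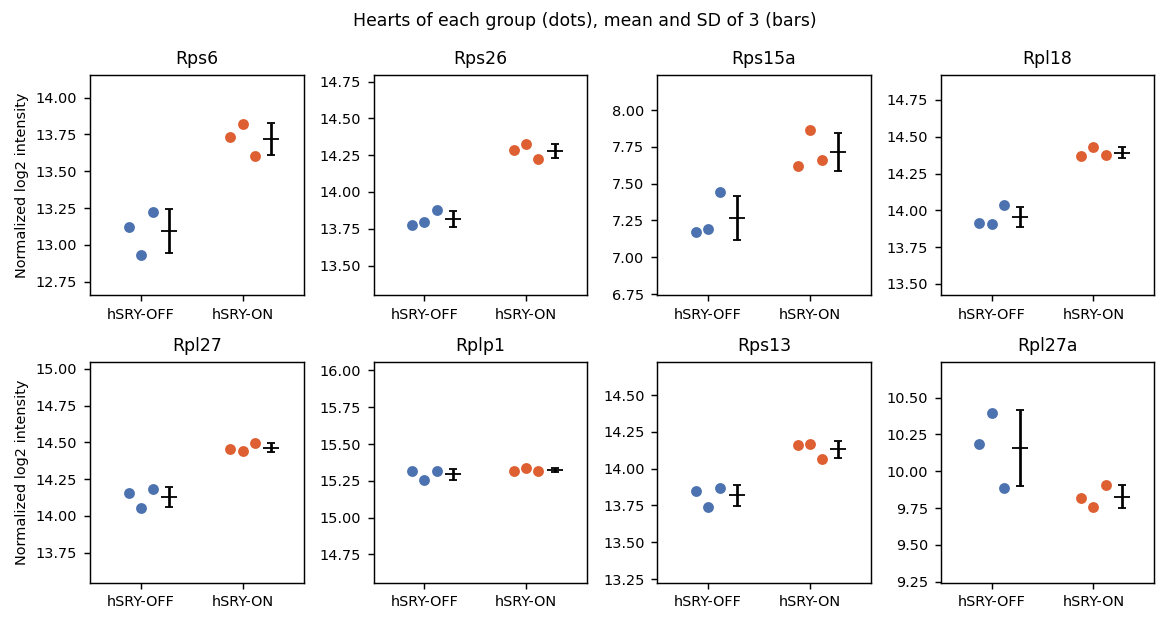
Normalized log2 intensity (vertical axis, each panel spanning the same range) of 8 ribosomal protein probes in the hSRY-OFF and hSRY-ON hearts, with dots for hearts and bars for the mean and SD of 3. Rps6, Rps26, Rps15a and Rpl18 were called higher, Rpl27, Rplp1 and Rps13 were not called, and the hSRY-OFF values of Rpl27a are spread by the low replicate 3.

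These 4 probes belonged to 4 different genes, each with a single probe on the array. The next highest were Rpl27 (0.34, adjusted p = 0.0570), Rps13 (0.31, adjusted p = 0.0747), Rps7 (0.30, adjusted p = 0.0723) and Rps14 (0.28, adjusted p = 0.0895), none of which passed the adjusted threshold here. All 4 passed it with an intensity trend (adjusted p = 0.00233 to 0.00534) and without background correction (0.0107 to 0.0189), and Rpl27 passed in 5 of 17 alternatives. After normalization, the hSRY-ON hearts lay above the hSRY-OFF hearts for these 4 probes, as for 23.6% of all tested probes. The probes were named for their large differences, so this order is no further support. As deposited, the groups overlapped for all 4. Rps14 is known from the loss of a human chromosome arm in a form of myelodysplasia, and Rps7 from Diamond-Blackfan anaemia.

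Toward the other end of the set, Rpl27a of the large subunit had deposited intensities of 1489, 1802 and 826 in hSRY-OFF and 957, 999 and 1034 in hSRY-ON hearts. The groups overlapped through hSRY-OFF replicate 3. Its log2 difference was −0.33 (interval −0.69 to 0.03, limma adjusted p = 0.151), and −0.46 without hSRY-OFF replicate 3 (adjusted p = 0.0442), so this heart decides whether Rpl27a was called lower.

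**Figure D5:**
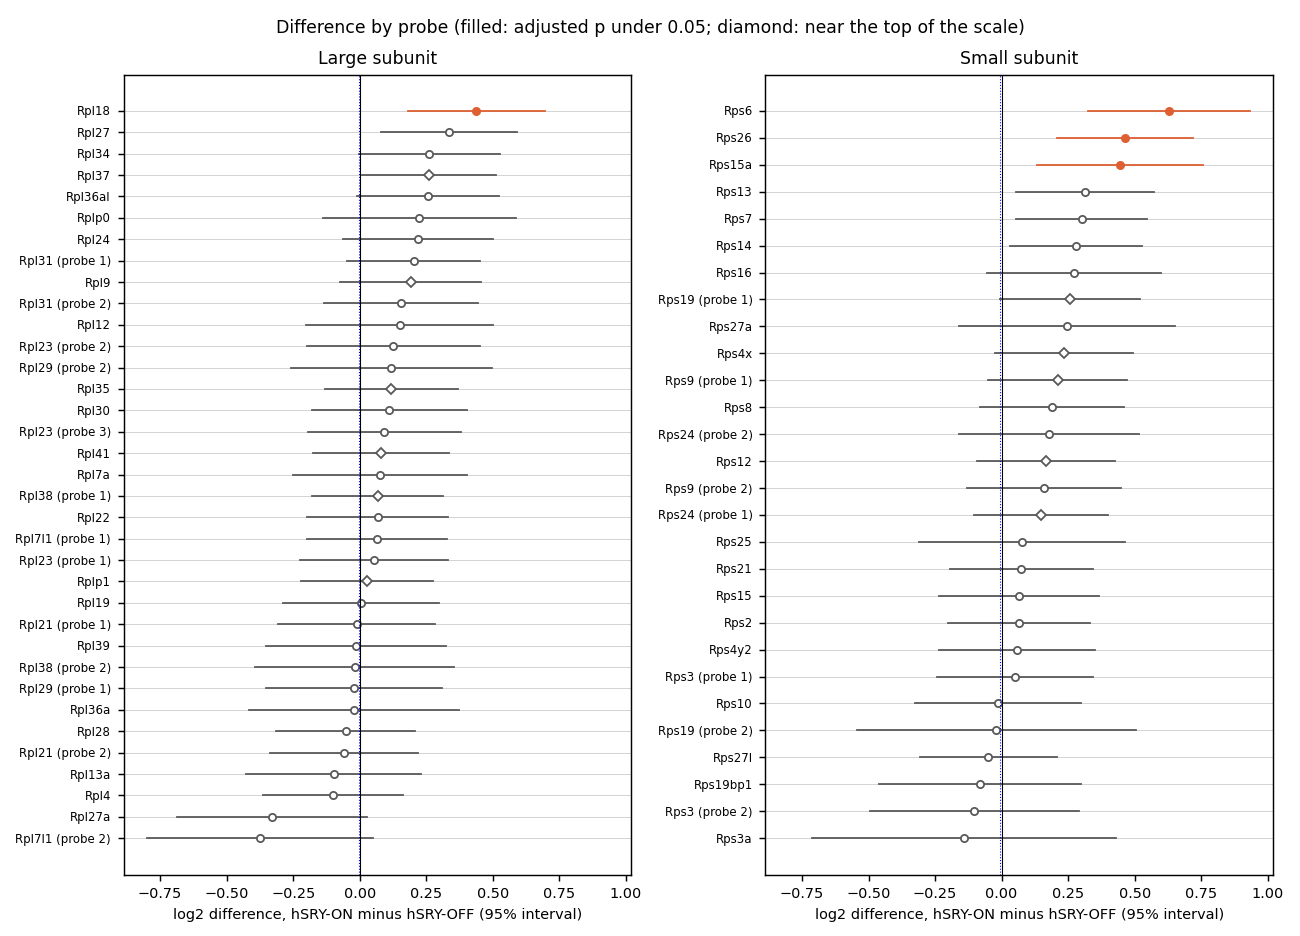
Log2 difference, hSRY-ON minus hSRY-OFF (horizontal axis), with its 95% interval for 35 large and 28 small subunit probes, ordered by size. Filled points are the 4 probes with an adjusted p-value under 0.05, diamonds the 11 of them near the top of the scale, and the dotted line the median of all tested probes.

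Several ribosomal protein probes were in the upper part of the range of an array, where a scanner can have less room left to record an increase. The top was taken as the brightest probe of each array, at 43036 to 48079. This need not be the limit of the scanner, and saturation was not tested. A probe was counted as near the top of the scale when its mean deposited intensity exceeded 50% of the mean highest intensity of the arrays, 46053. There were 63 such probes on the array, and 12 of them were ribosomal proteins, 6 of each subunit. In the large subunit they were Rplp1, Rpl41, Rpl38, Rpl9, Rpl35 and Rpl37, and in the small subunit they included Rps12, Rps9, Rps4x, Rps24 and Rps19. Rplp1, a protein of the stalk that brings elongation factors to the ribosome, was the brightest ribosomal protein probe on all 6 arrays, at 85.3% to 91.5% of the highest intensity.

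None of these 12 probes was called. Their differences reached at most 0.26, for Rpl37, with a median of 0.10 in the large and 0.19 in the small subunit, and all 12 intervals lay within 1.5-fold. Rplp1 was at 43300, 43899 and 36690 in hSRY-OFF and 39662, 41410 and 39247 in hSRY-ON hearts, a log2 difference of 0.03 (interval −0.22 to 0.28, adjusted p = 0.868). Rpl37 (interval 0.01 to 0.51) had an unadjusted p-value of 0.0438 and an adjusted one of 0.113.

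Below the top of the scale, the medians were 0.07 over the 29 large subunit probes and 0.08 over the 24 small subunit probes, and all 4 called probes were there. Leaving out the bright probes thus lowered the small subunit median from 0.15 to 0.08. Of all 63 probes near the top, 3 were called higher and 7 lower. How far the upper end of the scale narrowed the differences was not tested.

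Where a gene had several probes, their agreement was described. Of the 61 genes, 15 had more than 1 probe and 10 had more than 1 tested probe, whose differences were a median of 0.08 apart on the log2 scale. Rpl38, which helps in the translation of Hox mRNAs in the embryo, had a probe near the top of the scale with a difference of 0.07 and a dimmer probe at −0.02. The 3 tested probes of Rpl23 were at 0.05, 0.13 and 0.09, those of Rps9 at 0.21 and 0.16, and those of Rps24 at 0.15 and 0.18. Rps3, which sits where the mRNA enters the small subunit, had 0.05 and −0.10. None of these probes was called.

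The largest distances occurred for genes with a dim probe, although a dim probe of Rps24 (deposited intensity 211 to 321) lay only 0.03 from its bright one. The probes of Rpl7l1 differed by 0.44, with 0.07 for the brighter and −0.38 for the dimmer one, whose deposited intensity was 179 to 272. Rps19, the gene most often mutated in Diamond-Blackfan anaemia, had 0.26 on a bright probe and −0.02 (interval −0.54 to 0.51) on a dim one. Probe sequences were not analysed here, so it is not known which transcripts, or which of the many processed copies of ribosomal protein genes in the genome, each probe can bind.

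Members of the large subunit were described by their place in the ribosome. Among the proteins around the tunnel through which the new chain leaves, Rpl31 had 0.20 and 0.15, Rpl35 0.12, Rpl39 −0.01, Rpl4 −0.10 and Rpl19 0.00. Of the stalk, Rplp0 had 0.22 (interval −0.14 to 0.59) and Rplp1 0.03, and Rplp2 had no probe that passed the filter. Rpl24, which forms a bridge to the small subunit, had 0.22, and Rpl41, the smallest protein of the ribosome, 0.08. None of these was called, and their signs were mixed.

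In the small subunit, the proteins at the mRNA entry, Rps2 and Rps3, had 0.06 and 0.05 on their brightest probes. Rps27a, which is made as a fusion with ubiquitin, had 0.25 (interval −0.16 to 0.65), and Rps25, which viral internal ribosome entry sites need, had 0.08. Rps10 was at −0.01, Rps12 at 0.17, and Rps15, near the decoding site, at 0.07. None of these was called, whereas Rps26, near the mRNA exit, was called higher.

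Some symbols chosen by the rule are copies or relatives of the standard proteins. Rps27l, a copy of Rps27, was at −0.05. Rpl36al was at 0.25 (interval −0.01 to 0.52) beside −0.02 for Rpl36a, whose interval ran from −0.42 to 0.37. Rps4y2, a relative of Rps4x, was at 0.06, and Rps4x at 0.23. Rps19bp1 binds Rps19 and is not a ribosomal protein, and it had −0.08. Differences between copies were not tested. Without copies and relatives, 59 tested probes remained, and the same 4 were called.

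No probe passed the filter for 7 symbols, namely Rpl14, Rpl17, Rpl22l1, Rpl39l, Rpl6, Rplp2 and Rps23. Of the 79 probes, 65 were detected on all 6 arrays, 12 on no array and 2 on some. The probes detected on no array included second probes of genes whose other probe was bright, so a probe without signal did not mean a gene without transcript. The list of standard proteins used here holds 45 large and 30 small subunit proteins. It leaves out Rpl3 and proteins named by other symbols, such as Rpsa, so it is not the whole ribosome. Of the listed proteins, 26 and 23 had a tested probe by symbol. Rpl5 and Rpl11, which bind Mdm2 when ribosome assembly fails, are among those not analysed here.

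The first bases of the transcripts are shown for the 4 called genes, and for 4 genes that were not called, because the TOP element lies there. Each window has 30 bases, from 10 before to 19 after the base where RefSeq starts the transcript, on the coding strand of GRCm38.p6. Capitals mark 3 sets of letters that stand for a pyrimidine run beginning with C. The longest is CTCTTT, a shorter one that ends in C reads CTTTC, and another that ends in T reads CTTTT. They were searched on the coding strand, and their matches can overlap.
Rps6, chr4:86857348-86857377, minus strand: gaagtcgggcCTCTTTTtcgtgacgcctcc
Rps26, chr10:128626487-128626516, minus strand: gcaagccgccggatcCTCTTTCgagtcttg
Rps15a, chr7:118116128-118116157, minus strand: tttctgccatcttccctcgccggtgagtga
Rpl18, chr7:45718061-45718090, plus strand: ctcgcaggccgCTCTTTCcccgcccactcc
Rpl28, chr7:4792955-4792984, plus strand: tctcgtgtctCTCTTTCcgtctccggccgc
Rpl35, chr2:39005112-39005141, minus strand: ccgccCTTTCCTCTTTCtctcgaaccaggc
Rpl38, chr11:114668570-114668599, plus strand: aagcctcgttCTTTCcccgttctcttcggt
Rpl27a, chr7:109519185-109519214, plus strand: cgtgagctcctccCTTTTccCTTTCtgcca

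Of the called genes, Rps6, Rps26 and Rpl18 had a match in this window and Rps15a had none. The 4 genes shown that were not called all had a match, and they included Rpl27a, with a difference of −0.33, as well as Rpl35, with 0.12. They do not stand for all uncalled genes, since most windows of the set had no match, among them those of Rpl27, Rps13 and Rps7. Called and uncalled genes thus cannot be compared from the windows shown. A promoter window was matched by symbol for 50 of the 61 genes, some of which have several starts, giving 58 windows. CTCTTT was in 10.3% of them and in 1.02% of all 32851 mouse windows, CTTTC in 20.7% and 3.74%, and CTTTT in 8.62% and 3.10%. At least 1 of the 3 was in 16 windows (27.6%), against 7.0% of all.

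The same windows were searched over 300 bases, 250 before the start and 50 from it on, on both strands. The letters CCGGAAG, as Ets factors of the GABP kind bind, were in 22 of the 58 windows (37.9%) and in 8.86% of all. TATAAA was in 10.3% and 13.6%. A match is a description of letters and no evidence of binding, and a window without a match does not show that the element is missing, since the true start can lie elsewhere.

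The genes that work with the ribosome were counted from lists, with the brightest tested probe for each gene. Over 9660 genes, 14.9% were called higher and 13.9% lower by this measure. Of 16 tested elongation and initiation factors and other TOP mRNAs, 1 was higher, Btf3 (0.47, limma adjusted p = 0.0187), a part of the complex that meets new protein chains, and none was lower. Eef2, which moves the ribosome along the mRNA, was at 0.36 (adjusted p = 0.0782), and Eef1a1, which delivers the transfer RNA, at 0.06 (interval −0.19 to 0.31). The median of this list was 0.07. Naca (−0.32) and Eef1d (−0.27) were not called on their brightest probe. However, 2 of 3 and 1 of 2 of their tested probes were called, so the counts of this list depend on the probe.

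Of 47 tested ribosome biogenesis genes, 4 were higher and 2 lower, with a median of −0.01. Taf1d, a subunit of the RNA polymerase I selectivity factor, was higher by 1.03 (limma adjusted p = 0.00254), as were Rrp12 (0.75), the small subunit export factor Ltv1 (0.51) and Gnl3 (0.40), a nucleolar GTP-binding protein. Emg1, which methylates the small subunit ribosomal RNA, fell by 0.92 (adjusted p = 0.0282) and the nucleolar protein Ncl fell by 0.48 (adjusted p = 0.0268). The calls thus went in both directions. Of the tested probes of a gene, 2 of 2 were called for Emg1, 1 of 2 for Ncl and 1 of 3 for Gnl3.

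Of 21 tested genes of the mTOR and MYC axis, 3 were higher and 2 lower, with a median of 0.14. Ddit4, an inhibitor of mTORC1, was higher by 1.25 (limma adjusted p = 0.0475), as was the arginine sensor Castor1 by 1.01. Myc, counted among the 3 that were higher, was detected in all 3 hSRY-ON hearts and in 0 hSRY-OFF hearts. It was thus tested only through the group where it is high. Its log2 means were 5.15 in hSRY-OFF and 5.82 in hSRY-ON (interval of the difference 0.28 to 1.06, limma adjusted p = 0.0217). With the hSRY-OFF values raised to the lowest detected value of their array, the means were 1.31-fold apart, with no allowance for sampling error. Rragd, a GTPase that recruits mTORC1 to the lysosome, fell by 1.36 (adjusted p = 0.000470), and Tsc2, an inhibitor of mTORC1, fell by 0.42. Tsc2 had 1 of 2 tested probes called. So had Sesn1, whose brightest probe was at 0.81 and was not called, so these counts also depend on the probe. Rps6kb1, a kinase of the Rps6 protein, was detected on 3 of 6 arrays and was at 0.42 with an interval of −0.33 to 1.18, which does not settle its direction. These are transcripts, and the phosphorylation of Rps6 was not measured.

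Of the ribosomal proteins named by other symbols, the probe of Rpsa was not above background on any array, and Gnb2l1, or Rack1, was at 0.37 (interval −0.21 to 0.95, adjusted p = 0.310). The mitochondrial ribosomal proteins, which serve a separate ribosome, had 54 of 90 tested probes called lower (60.0%) and none higher, with a median log2 difference of −0.47. The same hearts thus gave 0 of 65 cytosolic probes called lower and 54 of 90 mitochondrial ones.

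A heart is a mixture of cells, and in such bulk samples fewer cells of a type and less RNA per cell cannot be told apart. All 9 defining heart markers found were detected, and 3 of them were called lower, namely Tnni3, Ryr2 and Myh6. Of 9 tested macrophage markers, 6 were called higher, and the normalized intensities of all 9 added up to between 4605 and 5912 in the hSRY-OFF group and between 10387 and 10964 in the hSRY-ON group. Of 8 tested endothelial markers 4 were called lower and 1 higher, and the sums over the 9 found were 30961 to 34474 and 25888 to 29048. The 9 erythroid markers found, of which 5 were tested and 1 called lower, had sums of 49169 to 61418 and of 50954 to 55627, with Klf1, Rhd, Gata1 and Epb4.2 not above background. Of 8 tested fibroblast markers 1 was called higher, of 5 adipocyte markers 2 were called higher, and of 4 thymocyte markers 2 were called lower, with Cd3e, Cd4, Cd8a, Rag1 and Rag2 not above background. The part of these cell types in the differences of the ribosomal proteins was not tested.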

How the data were processed

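Total RNA of 6 hearts was labelled and hybridized by the authors to Illumina MouseRef-8 v2.0 BeadChips, 1 array per heart. They deposited, for each probe, a linear mean bead intensity without normalization and a detection p-value against the negative-control beads of the array. The bead summary software is not given in the sources used here. The submitters' processing notes name limma, and the methods name TCC without settings, which was not run.

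From the deposited intensities, the steps were those of neqc in limma 3.58.1 (R 4.3.3). Background was corrected by normexp with negative controls inferred from the detection p-values and an offset of 16, arrays were quantile normalized, and log2 was taken. A probe was tested when detected at a p-value under 0.05 on at least 3 of the 6 arrays, in whichever group. Groups, taken from the sample labels, were compared with lmFit and eBayes, two-sided, with Benjamini-Hochberg adjustment over all 12970 tested probes and a threshold of 0.05. Intervals are 95% intervals of the moderated test. The steps were also run on simulated data with few changed probes and errors independent between probes. That does not show how they behave with as many changes as these data have. On each array 47.2% to 51.3% of probes were detected, and the number of arrays limits the precision. The labels do not say that hearts came from separate litters or preparations, so p-values measure the spread between these samples. No slide or scan batch was given in the table.

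The members and gene lists were chosen with earlier results of these data known. Named were the called probes, the brightest probes of each subunit, the extremes near the top of the scale, copies and their relatives, probes that differ within a gene, genes with a stated role, and the called extremes of each list. Rps13, Rps7, Rps14, Rpl27 and Rpl27a were named after their values were seen, as were the uncalled genes given for their intervals. Results of 2 members are not reported here by name. Replicate numbers are shared between the groups, but the correlations of same-numbered hearts' deviations from the group means were −0.02, 0.04 and −0.07, so the hearts were not paired. Alternatives changed the background correction, the normalization, the filter, the variance model, the replicate block, the probe per gene, the bright probes, the member rule and each heart in turn. Sequences are RefSeq windows of GRCm38.p6, and matplotlib 3.10.9 in Python 3.11.15 drew the figures.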

Additional observations from a re-analysis of the deposited data

How the results depend on the processing

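Rps6 was called higher under each alternative except the one without normalization between arrays (log2 difference 0.46, adjusted p = 0.369), whereas Rpl18 and Rps15a each lost the call in 9 of 17 alternatives and Rps26 in 7. The number of large subunit probes called higher, 1 in the chosen model, was 5 without background correction, 7 with an intensity trend and 2 with an offset of 50, with detection on all 6 arrays, with detection at 0.01 or with 1 probe per gene. It was 0 without normalization, under both median scalings and under cyclic loess. The number of small subunit probes called higher, 3, was 7 without background correction, 8 with an intensity trend and 0 without normalization. Over all tested probes the calls fell from 3567 to 1897 without normalization, where 38.5% of calls were higher in place of 50.1%, and 65.7% were when arrays were scaled to the median of detected probes, which moved the median of all probes to 0.09.

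The large subunit median was −0.038 without normalization, 0.17 with scaling to detected probes and 0.14 with scaling to the probes not called. The small subunit median was 0.12 without background correction, −0.052 without normalization, 0.046 under cyclic loess and 0.075 without the probes near the top of the scale. Leaving out each heart gave 0 to 1 large subunit probes called higher and 0 to 1 lower, 1 to 3 small subunit probes higher and 0 to 1 lower, medians of 0.07 to 0.09 and 0.12 to 0.16, and 2239 (without hSRY-OFF replicate 1) to 3714 calls over all probes. The calls lower, Rpl27a in the large subunit, came without hSRY-OFF replicate 3. With the replicate number as a block, 0 large subunit probes and 1 small subunit probe (Rps6, adjusted p = 0.0400) were called, where 21.9% of all probes were. Same-numbered hearts did not deviate together, with correlations of −0.02, 0.04 and −0.07.

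Of the 65 tested ribosomal protein probes, 24 turned in sign without normalization, 14 with scaling to detected probes, 9 with scaling to probes not called, 9 under cyclic loess and 2 to 8 when a heart was left out. Among those refitted one by one, the values without normalization were −0.024 for Rpl41, −0.058 for the bright Rpl38 probe, −0.031 for the brighter Rpl7l1 probe, −0.038 for Rplp1, −0.0019 for Rps14, −0.062 for the dimmer Rps9 probe and −0.032 for Rps4y2. The dim Rpl38 probe was at 0.11 with scaling to detected probes and at 0.075 with scaling to probes not called. Leaving out a heart, it ranged from −0.13 to 0.13 and Rps4y2 from −0.014 to 0.14. The cause of these changes was not tested.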
